A study of Mus musculus with 30 samples.

Results

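Messenger RNA of the lysosome was followed across 2 primary mouse cell types and 5 sterol-pathway ligands. The gene set held 42 genes: 11 proteases, 7 enzymes that degrade glycans, 4 genes of lipid degradation, 6 membrane proteins, 9 genes of the proton pump, 3 transcription factors, and the pair of progranulin and the autophagy receptor Sqstm1. Members were found by their symbol in the count tables, and all 42 were present among the 24063 genes of the macrophage table and the 24453 genes of the hepatocyte table. The study exposed thioglycollate elicited macrophages (3 libraries per group, in RPMI) and hepatocytes (2 libraries per group, in Hepatozyme) to desmosterol at 10 uM, to DMHCA, MePipHCA, GW3965 or T0901317 at 1 uM, or to vehicle (DMSO / EtOH). Both media carried 10% FBS. For 24 h before the ligand, the cells of all groups, vehicle included, were held in serum depleted of lipid, to which mevastatin (10 uM), an inhibitor of sterol synthesis, and mevalonate (50 uM) had been added, and RNA was taken 18 to 20 h after the ligand was added. Desmosterol is the last intermediate on one branch of cholesterol synthesis. DMHCA and MePipHCA are synthetic cholenamides made as mimics of it, with a dimethyl amide in the first and a methylpiperidine amide in the second. GW3965 and T0901317 are synthetic non-steroidal agonists of the liver X receptors (LXR). Strain, sex and age of the animals were not in the labels, and nothing said whether the libraries of a group came from separate animals or cultures, so p-values measure the spread between these libraries, which may be technical. Cell type, culture medium and the date in the library titles changed together and cannot be told apart.

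The lysosome is an acidic compartment in which hydrolases break down protein, glycan and lipid taken up from outside or delivered by autophagy. A proton pump, the V-ATPase, acidifies it, with a V0 sector in the membrane and a V1 sector in the cytosol that hydrolyses ATP. TFEB, TFE3 and MITF are related transcription factors that bind a palindrome known as the CLEAR element near many lysosomal genes. Macrophages are rich in lysosomes because they ingest cells, debris and lipoproteins, while hepatocytes use them for autophagy and for turnover of endocytosed protein and lipid.

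The macrophage libraries held between 3862655 and 15685961 counts and the hepatocyte libraries between 6627812 and 18626562. Levels below are read counts scaled to library size (CPM) with edgeR's trimmed mean of M values (TMM). A gene was called changed at an adjusted p under 0.05 in edgeR's quasi-likelihood test with Benjamini-Hochberg adjustment over all genes tested. Abca1, a cholesterol exporter under LXR control, rose with each ligand in macrophages, by 2.99 (desmosterol) to 4.33 (T0901317) on the log2 scale. In hepatocytes Abca1 rose by 2.24 with GW3965 and by 2.40 with T0901317, and fell by 0.79 ± 0.09 (SE) with MePipHCA. It was not called there with desmosterol (0.21 ± 0.09, adjusted p = 0.519) or DMHCA (-0.09 ± 0.09, adjusted p = 0.98). The hepatocyte marker Alb matched the labels, with means between 18955 and 22708 CPM in the hepatocyte groups and at most 0.12 CPM in the macrophage groups. The whole hepatocyte marker list averaged 33307 to 38630 CPM in the hepatocyte groups and 518 to 823 CPM in the macrophage groups. The macrophage marker list averaged 12941.5 to 16541.8 CPM in the macrophage groups and 319 to 404 CPM in the hepatocyte groups. One hepatocyte library, vehicle replicate 1, stood apart from the other hepatocyte libraries in several genes abundant in macrophages. It held 415 counts of Gpnmb, 155 of Ctss, 209 of Lyz2 and 11 of Ctsk in a total of 12854290. Vehicle replicate 2 held 13, 9, 25 and 0 in a total of 6627812. Ctsk was near the floor and also had 7 counts in MePipHCA replicate 1. Of the Kupffer cell markers, Clec4f (2.10 against 0.605 CPM) and Cd5l (1.40 against 0.907 CPM) were also higher in vehicle replicate 1 than in replicate 2. Both were higher still in every library of desmosterol, MePipHCA, GW3965 and T0901317. Scaled to depth, Vsig4 was not higher, with 16 and 15 counts in vehicle replicates 1 and 2, and Timd4 had 0 in both. Marco had 211 and 93 counts, and the whole list summed to 21.2 and 17.8 CPM. The sum of 8 macrophage markers was 369 and 342 CPM in the 2 vehicle libraries, but Cd68 (227 and 234 CPM) and Cd14 (113 and 94.9 CPM) carry most of it. The part of other cells in that library was not tested. Results that rest on that library are given with and without it. Strand was not given for the counting, and 7 lysosome genes overlap a gene on the other strand, among them Ctsa with Pltp and Ctsb with Fdft1, so reads of such pairs may be shared.

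In vehicle-treated cells the lysosome genes made up 15.5% to 15.7% of all macrophage counts and 1.2% to 1.3% of hepatocyte counts. Levels per length, in the deposited RPKM, were higher in macrophages for 40 of the 42 genes, and the median over the genes was 243 RPKM in macrophages and 43.7 RPKM in hepatocytes. The order differed between the cell types. In macrophages the highest levels were those of Ctsd (cathepsin D, an aspartic protease), at 11857 ± 163 RPKM (SD, n = 3), and Psap (prosaposin, the precursor of the saposins that help lipid hydrolases), at 11615 ± 177 RPKM, which did not differ beyond their spread. Gpnmb, a glycoprotein of lysosomes and melanosomes, followed at 7590 ± 237 RPKM, then Ctss (cathepsin S, which cuts the invariant chain in antigen presentation) at 5008 ± 265 RPKM and Ctsb (cathepsin B) at 3614 ± 123 RPKM. In hepatocytes Sqstm1, the p62 receptor that carries ubiquitinated cargo into autophagosomes, came first at 886 ± 19.2 RPKM (SD, n = 2), above Ctsd at 430 ± 52.4, Ctsl (cathepsin L) at 398 ± 42.2 and Ctsz (cathepsin Z) at 384 ± 25.7 RPKM. The last 3 overlapped within their spread.

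Between the cell types, 39 of the 42 genes were called higher in vehicle-treated macrophages and 2 lower, where 36.5% and 41.8% of the 13700 genes tested were called higher and lower. The largest differences were in genes known for expression in macrophages or osteoclasts. Atp6v0d2, the V0 subunit d isoform of osteoclasts and some macrophages, stood at 774 ± 13.0 RPKM in macrophages and 0.898 ± 0.135 in hepatocytes. Its broadly expressed counterpart Atp6v0d1 stood at 169 ± 10.2 and 57.6 ± 1.10 RPKM. Ctsk, the collagen-degrading cathepsin of osteoclasts, was at 287 ± 21.2 RPKM in macrophages and was at 0 to 0.86 CPM in the 12 hepatocyte libraries, too low to be tested within hepatocytes. Sqstm1 was lower in macrophages, at 340 ± 5.27 RPKM, with a log2 difference of -1.08 ± 0.08 (SE, adjusted p = 7.88e-16). Scarb2, the lysosomal membrane receptor that carries beta-glucocerebrosidase, was called lower in macrophages by counts (log2 difference -0.17 ± 0.07, adjusted p = 0.025, a call lost in 7 of 10 alternative settings), but its level per length was higher there, at 83.0 ± 3.23 against 51.0 ± 2.25 RPKM. The count tables give Scarb2 an exon length of 2096 bases in macrophages and 4707 in hepatocytes. Lengths differed between the tables for 11 of the 42 genes, among them Ctsl (1961 and 3499 bases) and Ctsc (2463 and 7457 bases), so count differences between cell types hold less well for these than the per-length levels. The transcription factors were also higher in macrophages: Tfeb was at 46.1 ± 1.14 against 3.70 ± 0.28 RPKM, Mitf at 22.6 ± 0.78 against 1.28 ± 0.02, and Tfe3 at 49.7 ± 1.5 against 25.9 ± 1.22 RPKM.

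**Figure D1:**
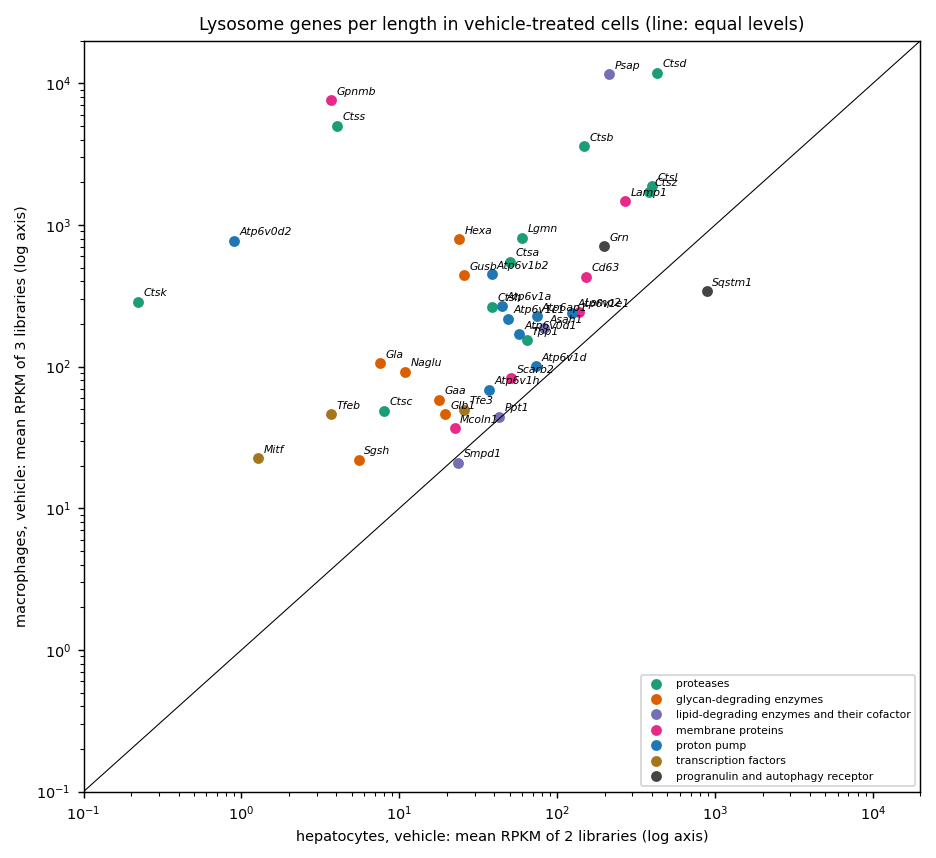
Mean RPKM of each of the 42 lysosome genes in vehicle-treated hepatocytes (x axis, 2 libraries) and macrophages (y axis, 3 libraries), on log axes, coloured by role, with the line of equal levels. Sqstm1 and Smpd1 lie below the line, and Gpnmb, Ctss, Ctsk and Atp6v0d2 lie farthest above it.

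Promoter sequence was available from RefSeq for 29 of the 42 genes (build GRCm38.p6, the mm10 assembly of the count tables, with a RefSeq start within 100 bases of the start in the tables). The full CLEAR palindrome was in 0 of the 29 windows of 300 bases, and in 0.496% of the 15733 windows of all genes matched the same way. Its 8-base core TCACGTGA, searched on both strands, was in 5 of the 29 (17.2%, against 1.3% of all windows): Ctsd, Ctsa, Atp6v0d1, Mcoln1 and Gla. The E-box CACGTG, which lies inside the core, was in 10 (34.5%, against 8.08%), and the M-box TCATGTGA, a form bound by MITF, in 4 (13.8%, against 0.915%). The core TGACNNNGC of the antioxidant response element was in 6 (20.7%, against 13.2%). Promoters of 4 genes that carry CACGTG are shown, picked with their RNA changes known. With MePipHCA in macrophages Gla and Mcoln1 were called higher and Ctsd was not called. Lamp1 was called lower, a call lost in most fits that left out 1 library. A link between these letters and the RNA changes was not tested. Capitals mark CACGTG and, where present, the TCACGTGA around it. Each is given 5′ to 3′ on the gene's strand and ends before the transcript: Gla at chrX:134601006-134601255 on the minus strand, Mcoln1 at chr8:3500269-3500518 on the plus strand, Ctsd at chr7:142387871-142388077 on the minus strand and Lamp1 at chr8:13158911-13159134 on the plus strand.
Gla: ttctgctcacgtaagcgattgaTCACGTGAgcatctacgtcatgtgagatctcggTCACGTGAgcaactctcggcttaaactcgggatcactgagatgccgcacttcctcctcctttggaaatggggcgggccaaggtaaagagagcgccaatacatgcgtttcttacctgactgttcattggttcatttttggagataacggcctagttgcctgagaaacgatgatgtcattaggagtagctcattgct
Mcoln1: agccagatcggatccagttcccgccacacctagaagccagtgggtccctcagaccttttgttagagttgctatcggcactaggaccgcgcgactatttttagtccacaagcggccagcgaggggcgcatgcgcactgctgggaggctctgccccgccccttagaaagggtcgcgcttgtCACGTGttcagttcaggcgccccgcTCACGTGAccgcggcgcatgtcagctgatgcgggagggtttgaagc
Ctsd: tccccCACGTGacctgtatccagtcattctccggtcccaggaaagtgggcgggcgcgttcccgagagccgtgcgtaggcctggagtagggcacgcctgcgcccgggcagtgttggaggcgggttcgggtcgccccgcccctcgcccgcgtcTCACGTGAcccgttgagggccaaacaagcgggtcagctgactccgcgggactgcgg
Lamp1: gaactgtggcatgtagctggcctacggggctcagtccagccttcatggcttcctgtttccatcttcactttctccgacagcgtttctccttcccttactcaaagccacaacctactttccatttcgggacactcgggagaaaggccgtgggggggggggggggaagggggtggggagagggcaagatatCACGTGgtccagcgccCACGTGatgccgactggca
Gla held the core 2 times, at positions -228 and -195 from its RefSeq start, Mcoln1 at -46 and Ctsd at -99. Lamp1 held only the shorter E-box, 4 times in its window, of which the matches at -61 and -45 lie in the stretch printed. The RefSeq start lies 43 bases from the start in the count table for Ctsd and 26 for Lamp1, and these 2 sequences were shortened to end before both starts. A match describes the letters and does not show that a factor was bound.

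In macrophages each ligand changed part of the lysosome set, in both directions. Desmosterol raised 11 of the 42 genes and lowered 1 (over all 11544 genes tested, 4.93% were called higher and 4.57% lower). DMHCA raised 13 and lowered 1 (5.8% and 5.9% of all genes), and GW3965 raised 13 and lowered 4 (6.54% and 6.69%). T0901317 raised 8 and lowered 6 (6.29% and 6.55%). MePipHCA raised 15 and lowered 7 (17.2% and 18.3%). The share of the set called higher with MePipHCA was 35.7%, above the background, and the share called lower was 16.7%, near it. The set was chosen with earlier results of these data known, so these shares describe it and are no test. The MePipHCA and vehicle libraries did not overlap for 20 genes that were higher and 10 that were lower, where 48.1% of all genes did not overlap. The lysosome genes are measured more precisely than most: with MePipHCA their median SE was 0.0537, against 0.116 over all genes tested. The shifts were small, with medians over the 42 genes of 0.10 (desmosterol), 0.08 (DMHCA), 0.08 (MePipHCA), 0.07 (GW3965) and 0.0025 (T0901317) on the log2 scale, beside medians of -0.0028 to 0.0034 over all genes. The 5 comparisons share the same 3 vehicle libraries. Counts of genes called with desmosterol fell to 7 of the 42 without vehicle replicate 2, and those with GW3965 to 11 without its replicate 1.

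**Figure D2:**
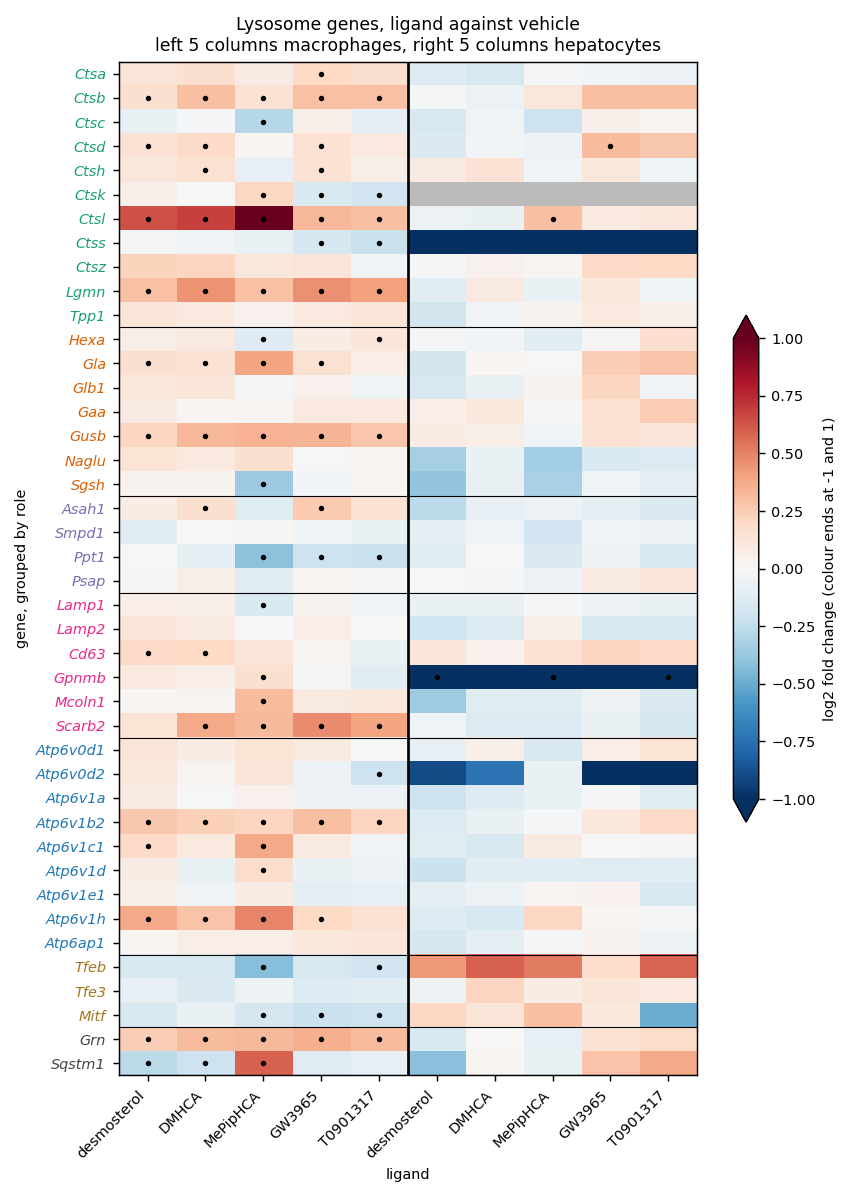
Log2 fold change of each lysosome gene (rows, by role) with each ligand against vehicle in macrophages (left 5 columns, 3 libraries per group) and hepatocytes (right 5 columns, 2 libraries per group). Dots mark an adjusted p under 0.05, grey marks Ctsk, which was not tested in hepatocytes, and the dark blue hepatocyte cells of Gpnmb and Ctss rest on vehicle replicate 1.

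As one total, the lysosome genes summed to 150646 to 154497 CPM in the vehicle macrophages and to 161267 to 164053 CPM with MePipHCA. These groups did not overlap, and on this scale the libraries of each other ligand were also all above the vehicle libraries. For T0901317 this depended on the TMM scaling. As a share of all counts, its libraries (15.60% to 15.87%) overlapped those of vehicle (15.46% to 15.70%). The sum reached 164560 to 175177 CPM with DMHCA, 157145 to 166307 with GW3965 and 155225 to 159244 with T0901317. Desmosterol replicate 2 gave 179402 CPM, and its other 2 libraries 157870 and 155521. Without that library the median over the set with desmosterol was 0.06 in place of 0.10. The sum is carried by a few abundant genes: Psap, Gpnmb, Ctsd and Ctsb held 11.48% of vehicle macrophage counts, of 15.54% for the whole set. From vehicle to MePipHCA, mean Ctsl went from 4199 to 8650 CPM and Gpnmb from 32756 to 36664. Ctsb went from 19489 to 21496, Ctsd from 26265 to 26626 and Psap from 33886 down to 31469 CPM.

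Among the proteases, MePipHCA raised 4 of 11 and lowered 1. Cathepsin L, an endopeptidase that also processes other cathepsins, changed most of the whole set. Ctsl stood at 4265, 4073 and 4258 CPM in vehicle macrophages and at 8554, 8710 and 8686 CPM with MePipHCA. Every MePipHCA library was above every vehicle library, and the fold change was 2.06 (log2 1.04 ± 0.05 SE, adjusted p = 7.17e-22). Ctsl was also called with the other ligands, at log2 0.63 (desmosterol), 0.68 (DMHCA), 0.33 (GW3965) and 0.30 (T0901317). Legumain, an asparaginyl endopeptidase that matures cathepsins, gave Lgmn at 1709, 1739 and 1713 CPM with vehicle and 2145, 2112 and 2082 CPM with MePipHCA (log2 0.30 ± 0.06, adjusted p = 4.45e-05). Its largest change was with GW3965, at log2 0.46 ± 0.06. Ctsk rose by 0.21 ± 0.05 and Ctsb by 0.14 ± 0.04. With GW3965 and T0901317 Ctsk fell, by 0.16 and 0.19, calls lost in 6 and 2 of 12 alternative settings (adjusted p up to 0.237 and 0.142). Ctsc, the dipeptidyl peptidase that activates granule serine proteases, fell with MePipHCA by 0.28 ± 0.06, from 135, 146 and 130 CPM to 107, 123 and 110 CPM. Ctsd, the most abundant protease per length, did not pass the test (log2 0.02 ± 0.05, adjusted p = 0.79), nor did Ctss, Ctsa, Ctsh, Ctsz and the tripeptidyl peptidase Tpp1, whose values lay between -0.08 and 0.11. Ctss fell with GW3965 by 0.17 ± 0.04 and with T0901317 by 0.22 ± 0.04.

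**Figure D3:**
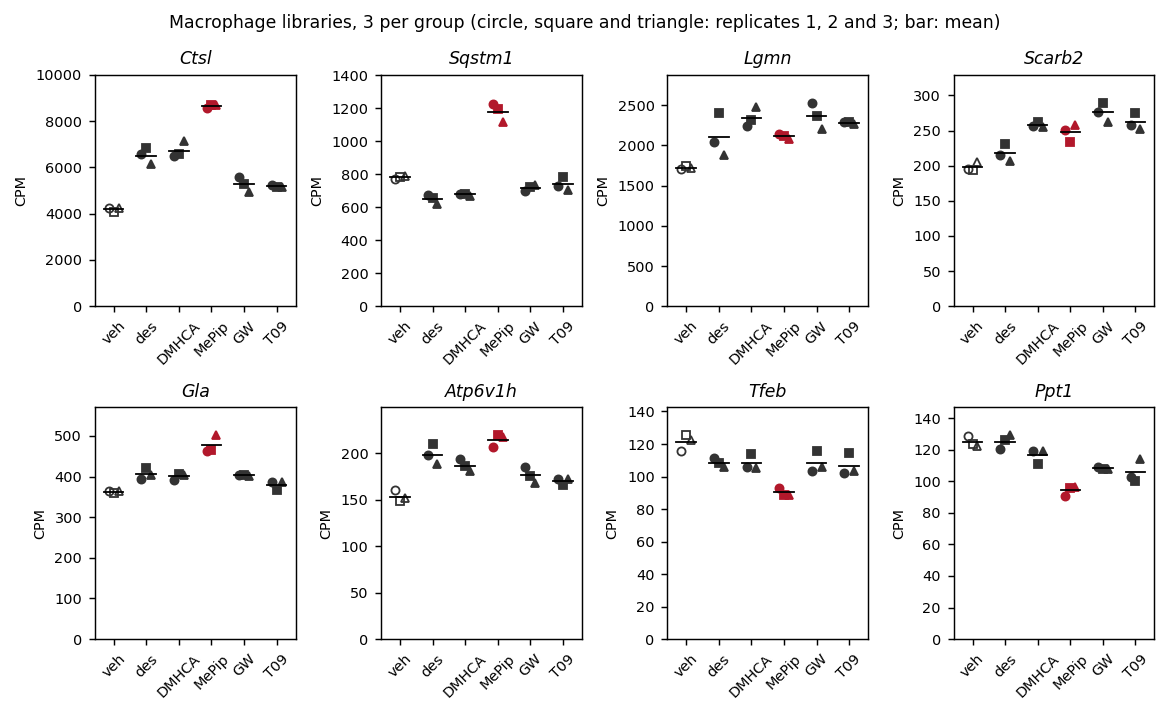
CPM of 8 lysosome genes in each macrophage library (3 per group) by treatment (veh, vehicle; des, desmosterol; MePip, MePipHCA in red; GW, GW3965; T09, T0901317), with bars at the group means. Ctsl and Sqstm1 are highest with MePipHCA, at 8554 to 8710 and 1119 to 1225 CPM, and Tfeb is lowest there, at 88.9 to 93.1 CPM.

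The glycan-degrading enzymes split. MePipHCA raised Gla (alpha-galactosidase, which removes galactose from glycolipids) and Gusb (beta-glucuronidase) and lowered Sgsh (a heparan sulfate sulfatase) and Hexa (the alpha subunit of beta-hexosaminidase). Gla went from 365, 359 and 364 CPM to 463, 465 and 502 CPM, with no overlap (log2 0.40 ± 0.05, adjusted p = 5.19e-09). Gusb went from 1206, 1232 and 1268 CPM to 1569, 1570 and 1574 CPM (log2 0.35 ± 0.05). Sgsh went the other way, from 101, 118 and 107 CPM to 86.2, 82.3 and 84.8 CPM (log2 -0.37 ± 0.07, adjusted p = 7.34e-05). Hexa fell by 0.13 ± 0.04, a call lost without MePipHCA replicate 3 and with counts thinned to the lowest total (adjusted p up to 0.0783). Naglu, another heparan sulfate enzyme, was at 0.16 ± 0.06 (adjusted p = 0.0501), just outside the threshold, and Glb1 and Gaa were near 0. Gusb was called higher with the other 4 ligands too, by 0.21 to 0.34, whereas Sgsh was between -0.03 and 0.04 with them.

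Of the 4 genes of lipid degradation, 1 fell with MePipHCA and 3 were not called. Ppt1, which removes palmitate from proteins, went from 129, 124 and 123 CPM to 90.7, 95.5 and 96.2 CPM (log2 -0.41 ± 0.06, adjusted p = 7.89e-07). It also fell with GW3965 by 0.21 and with T0901317 by 0.22, the former lost without vehicle replicate 1 (adjusted p up to 0.0513). Psap was at -0.11 ± 0.04 (adjusted p = 0.0517), acid ceramidase Asah1 at -0.12 ± 0.05 (0.057) and acid sphingomyelinase Smpd1 at 0.01 ± 0.08. Asah1 was called higher with DMHCA (0.16 ± 0.05) and GW3965 (0.26 ± 0.05), the former lost in 4 of 6 fits that left out 1 library (adjusted p up to 0.121).

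Of the 6 membrane proteins, MePipHCA raised 3 and lowered 1. Scarb2 stood at 196, 194 and 206 CPM with vehicle and at 251, 233 and 258 CPM with MePipHCA (log2 0.32 ± 0.06, adjusted p = 8.52e-06). It was called higher with DMHCA (0.38), GW3965 (0.48) and T0901317 (0.40) as well, and was at 0.14 ± 0.05 with desmosterol, which did not pass. Mcoln1, the calcium channel TRPML1 of the lysosomal membrane, rose with MePipHCA from 74.0, 90.8 and 86.2 CPM to 116, 108 and 92.7 CPM (log2 0.32 ± 0.08, adjusted p = 0.000831). With the other 4 ligands Mcoln1 lay between 0.02 and 0.11 and was not called. Gpnmb was at 31528, 32937 and 33803 CPM with vehicle and 37446, 36455 and 36091 CPM with MePipHCA, a rise of 0.16 ± 0.05 that was lost without vehicle replicate 1 (adjusted p up to 0.0511). Lamp1, a main glycoprotein of the lysosomal membrane, fell by 0.15 ± 0.05 (adjusted p = 0.024), a call lost in 5 of 6 fits that left out 1 library (adjusted p up to 0.0713). Lamp2, its relative that takes part in chaperone-mediated autophagy, was at -0.01 ± 0.05. The tetraspanin Cd63 was at 0.12 ± 0.05 and was not called with MePipHCA, but rose with desmosterol (0.19) and DMHCA (0.20). Without vehicle replicate 2 both of these were lost (adjusted p up to 0.242 and 0.155).

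All 9 proton pump genes of the set had positive estimates with MePipHCA, from 0.04 to 0.48, and 4 of them were called higher (17.2% of all genes). Those 4 were all from the V1 sector, to which most of the 9 belong. Pump subunits outside the set went both ways, as given below. Atp6v1h, the regulatory H subunit, went from 160, 148 and 151 CPM to 207, 219 and 217 CPM (log2 0.48 ± 0.06, adjusted p = 1.81e-09). Atp6v1c1, the C subunit that helps join V1 to V0, went from 532, 493 and 526 CPM to 667, 689 and 663 CPM (log2 0.38 ± 0.05). Atp6v1b2, one of the subunits that bind ATP, rose by 0.22 ± 0.05 and Atp6v1d by 0.17 ± 0.06, the latter lost in 4 of 12 alternative settings (adjusted p up to 0.123). Atp6v1a, the catalytic subunit, was at 0.04 ± 0.04, and the V0 genes Atp6v0d1 (0.14 ± 0.06, adjusted p = 0.0585) and Atp6v0d2 (0.12 ± 0.05, adjusted p = 0.0761) did not pass. With T0901317 Atp6v0d2 fell by 0.21 ± 0.05, from 2212, 2197 and 2187 CPM to 2005, 1683 and 2012 CPM, a call lost without T0901317 replicate 2 (adjusted p = 0.0849). The osteoclast and giant cell marker list summed to 195 to 215 CPM with vehicle, 126 to 150 CPM with GW3965 and 132 to 154 CPM with T0901317. These are the ligands with which Ctsk or Atp6v0d2 fell. The list was also below vehicle with MePipHCA, at 167 to 185 CPM, where Ctsk rose and Atp6v0d2 was not called. The part of such cells in these values was not tested. Atp6v1h was called with desmosterol (0.38), DMHCA (0.28) and GW3965 (0.20), and Atp6v1b2 with each ligand, by 0.22 to 0.30.

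The transcription factors did not rise with any ligand. Tfeb, a master regulator of lysosomal genes, was at 116, 125 and 122 CPM with vehicle and at 93.1, 88.9 and 88.9 CPM with MePipHCA. Every MePipHCA library was below every vehicle library (log2 -0.43 ± 0.06, adjusted p = 5.43e-07), and Tfeb fell in each of the 12 alternative settings. Its estimates with desmosterol, DMHCA and GW3965 were -0.16 and not called, and with T0901317 it fell by 0.19 ± 0.06 (adjusted p = 0.0289), a call lost in 5 of 12 alternative settings. Mitf fell with MePipHCA by 0.17 ± 0.06, a call lost in 4 of 6 fits that left out 1 library, and with GW3965 and T0901317 by 0.21. Tfe3 was at -0.05 ± 0.06 with MePipHCA and was not called with any ligand. These are RNA levels. The activity of these factors is set largely by their phosphorylation and nuclear entry, which were not measured.

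Progranulin (Grn), a secreted and lysosomal glycoprotein needed for lysosomal function, rose with MePipHCA from 1826, 1889 and 1888 CPM to 2406, 2310 and 2282 CPM (log2 0.32 ± 0.05, adjusted p = 7.06e-06). It was called higher with the other ligands as well, by 0.24 to 0.36. Sqstm1 was different. It stood at 773, 785 and 789 CPM with vehicle and at 1225, 1196 and 1119 CPM with MePipHCA, 1.51 times higher (log2 0.59 ± 0.05, adjusted p = 8.23e-14). With desmosterol it was at 673, 654 and 620 CPM and with DMHCA at 684, 680 and 671 CPM, so both groups lay wholly below vehicle (log2 -0.27 ± 0.05 and -0.21 ± 0.05, called lower). With GW3965 (-0.12 ± 0.05) and T0901317 (-0.08 ± 0.05) it was not called.

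**Figure D4:**
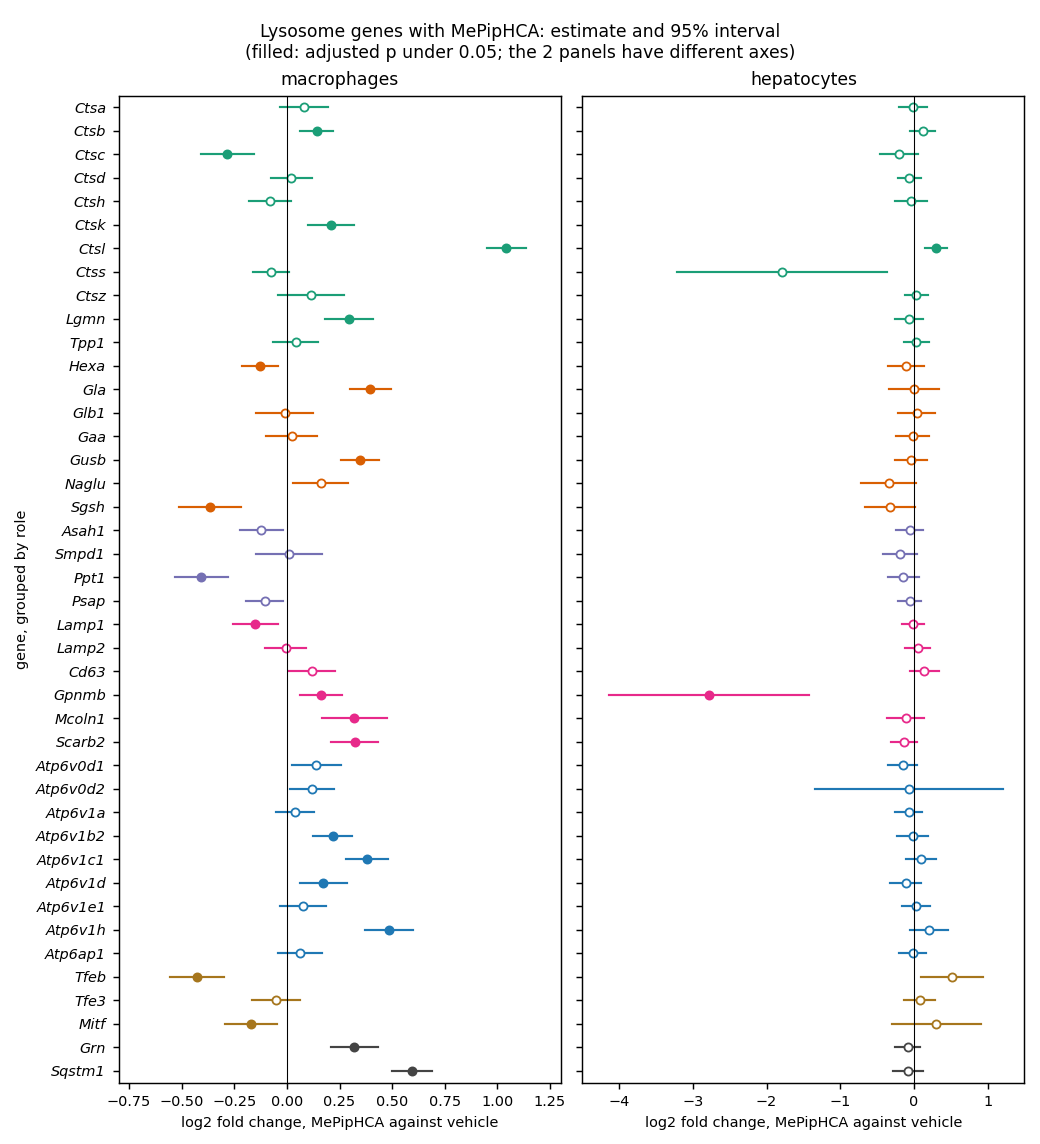
Log2 fold change of each lysosome gene with MePipHCA against vehicle and its 95% interval in macrophages (left) and hepatocytes (right), coloured by role, with filled circles at an adjusted p under 0.05. The panels have different axes; in macrophages Ctsl lies at 1.04 and Sqstm1 at 0.59, and in hepatocytes 34 of 41 intervals lie within 0.5 of 0.

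Direct comparison of the 2 cholenamides in macrophages called 8 lysosome genes higher and 11 lower with MePipHCA than with DMHCA (10.7% and 12.1% of all genes). Sqstm1 differed most, by 0.80 ± 0.05 (adjusted p = 6.11e-17). Ctsl was higher by 0.36 ± 0.05, and Mcoln1, Atp6v1c1, Gla, Atp6v1d, Ctsk and Atp6v1h by 0.20 to 0.29. Mcoln1 was lost without MePipHCA replicate 1 (adjusted p = 0.0931) and Atp6v1h without DMHCA replicate 3 (0.0522). The genes lower with MePipHCA included Sgsh (-0.41 ± 0.08), Ppt1 (-0.31 ± 0.07), Asah1 (-0.28 ± 0.05), Ctsc (-0.27), Tfeb (-0.26) and Ctsh (-0.24), with Hexa, Lamp1, Psap, Ctsd and Ctsb between -0.22 and -0.16. For Gusb (0.01 ± 0.05), Grn (0.01 ± 0.05) and Scarb2 (-0.06 ± 0.06) no difference between the compounds was detected, with 95% intervals of -0.08 to 0.10, -0.10 to 0.12 and -0.17 to 0.06. Against T0901317, MePipHCA gave 13 genes higher and 8 lower (12% and 13.9% of all genes), led by Ctsl (0.74 ± 0.05), Sqstm1 (0.67 ± 0.05) and Atp6v1c1 (0.42 ± 0.05) upward and by Sgsh (-0.39 ± 0.08) downward.

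The wider pathway, from lists of other lysosome and autophagy genes, held genes that rose and genes that fell with MePipHCA. Of 111 such genes tested in macrophages, 26 rose and 26 fell (23.4% each, where 17.2% and 18.3% of all genes were called higher and lower), with a median of 0.01. Of the 33 other lysosomal enzymes and cofactors, 9 rose (27.3%) and 15 fell (45.5%), with a median of -0.15. The largest falls were in Gm2a, the GM2 ganglioside activator (-0.52 ± 0.05), Pla2g15, the lysosomal phospholipase (-0.52 ± 0.05), Ids, a glycosaminoglycan sulfatase (-0.47 ± 0.07) and Hgsnat, a heparan sulfate acetyltransferase (-0.39 ± 0.08). Of the 23 other membrane proteins and sorting receptors, 4 rose and 5 fell (17.4% and 21.7%, near the shares over all genes). Sortilin (Sort1) fell by 0.77 ± 0.05, the two-pore channel gene Tpcn1 by 0.62 ± 0.06, the mannose 6-phosphate receptor gene Igf2r, which delivers hydrolases to lysosomes, by 0.34 ± 0.05, and Abca2 by 0.30 ± 0.08. Of 10 other pump subunits tested, Atp6ap2 rose (0.25 ± 0.05) and Atp6v1g2 (-0.70 ± 0.26), Atp6v0a1 (-0.31 ± 0.05) and Tcirg1, the V0 a subunit of osteoclasts (-0.19 ± 0.05), fell. Of 18 genes that control TFEB and mTORC1 at the lysosome, 4 rose, among them Lamtor3 (0.37 ± 0.10), Fnip1 (0.28 ± 0.06) and Rragd (0.17 ± 0.07), and Lamtor4 fell (-0.33 ± 0.11). Of 27 autophagy genes, 8 rose (29.6%) and 2 fell (7.41%). Atg13, of the ULK1 kinase complex, rose by 0.73 ± 0.06, Atg12 by 0.35 ± 0.06 and the receptor Optn by 0.28 ± 0.08, and Atg9b fell by 3.90 ± 0.61.

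Markers of several cell types, macrophages included, moved with MePipHCA in the macrophage cultures. All 6 fibroblast and stellate markers tested fell, and the 7 genes of that list summed to 80.1 to 97.2 CPM with MePipHCA against 244 to 309 CPM with vehicle. DMHCA libraries had 144 to 206 CPM and T0901317 libraries 258 to 338 CPM. Acta2 went from a mean of 18.8 to 0.98 CPM. Of 7 macrophage markers tested, 4 fell and 1 rose, with Csf1r lower by 0.88 ± 0.05 and the list summing to 12836 to 13057 against 16033 to 16126 CPM. The Kupffer cell list summed to 151 to 159 CPM with MePipHCA against 48.8 to 52.9 CPM, nearly all of it Cd5l, while Clec4f was at 0. That list was higher than vehicle with each ligand, at 97.5 to 125 CPM with desmosterol, 155 to 183 with DMHCA, 201 to 224 with GW3965 and 220 to 232 with T0901317. Of the osteoclast list the 2 genes tested, Acp5 (-0.23 ± 0.07) and Dcstamp (-0.87 ± 0.35), fell, while Calcr, Oscar and Ocstamp were at or near 0. In RNA of whole cultures, fewer cells of a type and less RNA per cell cannot be told apart. The part of these shifts in the lysosome values was not tested. Ctsk, which is also made by fibroblasts, rose with MePipHCA, and which cells its RNA came from was not tested.

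Hepatocytes showed few changes in lysosome genes. MePipHCA raised 1 of 41 genes tested and lowered 1 (0.789% and 1.38% of the 13176 genes tested). The gene that rose was Ctsl, at 1834 and 1655 CPM with vehicle and 2235 and 2054 CPM with MePipHCA. Both MePipHCA libraries were above both vehicle libraries (log2 0.30 ± 0.07, adjusted p = 0.0264), and the call was lost without vehicle replicate 2 or without either MePipHCA replicate (adjusted p up to 0.404). Against DMHCA (1605 and 1728 CPM), Ctsl was higher with MePipHCA by 0.36 ± 0.07 (adjusted p = 0.00323, where 1.29% of all genes were called higher and 2.01% lower), the only gene called of 6 with an unadjusted p under 0.05, and a call lost without MePipHCA replicate 1 (adjusted p = 0.144). The gene that fell was Gpnmb, by 2.78 ± 0.66 (adjusted p = 0.018), from 32.3 and 1.97 CPM to 2.15 and 2.91 CPM. The groups overlapped, and without vehicle replicate 1 the value was 0.37 (adjusted p = 0.949). The median SE over the 41 genes was 0.102, and their 95% intervals lay within 0.5 of 0 for 34 and within 1 of 0 for 38. The libraries of the 2 groups did not overlap for 4 genes higher and 10 genes lower with MePipHCA, while 43.5% of all genes did not overlap. Sqstm1 was at -0.07 ± 0.10, with an interval of -0.28 to 0.13. Tfeb, at 9.80 and 10.9 CPM with vehicle and 13.98 and 15.46 CPM with MePipHCA, had an estimate of 0.52 ± 0.21 that did not pass (adjusted p = 0.254).

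Among the other ligands in hepatocytes, GW3965 raised Ctsd alone of 41 genes (0.364% of all genes were called higher), from 1113 and 981 CPM to 1314.5 and 1297 CPM (log2 0.32 ± 0.07, adjusted p = 0.0386). That call was lost without vehicle replicate 2 or either GW3965 replicate (adjusted p up to 0.587). With T0901317 Ctsd was at 1275 and 1246 CPM (0.27 ± 0.07, adjusted p = 0.0788). Desmosterol and T0901317 raised 0 of the 41 genes by edgeR (0.205% and 0.486% of all genes were called higher) and lowered Gpnmb alone (0.159% and 0.455% were called lower), which again rests on vehicle replicate 1 (adjusted p of 0.845 and 0.902 without it). DMHCA called 0 of 41 genes by edgeR and by DESeq2 (0% of all genes by edgeR), and 4 had an unadjusted p under 0.05, Gpnmb, Ctss, Tfeb and Tfe3. Sqstm1, the most abundant of the set in hepatocytes, stood at 2226 and 2263 CPM with vehicle, 1736 and 1628 with desmosterol, 2666 and 1897 with DMHCA, 2245 and 2019 with MePipHCA, 2900 and 2566 with GW3965, and 3058 and 2792 with T0901317. The desmosterol libraries were lowest and the T0901317 libraries above vehicle, but neither passed against vehicle (-0.42 ± 0.10, adjusted p = 0.0655, and 0.38 ± 0.10, adjusted p = 0.0596). MePipHCA was below T0901317 for 3 genes and above it for 0 by edgeR, of 12 with an unadjusted p under 0.05 (2.91% of all genes were called lower and 3.14% higher): Sqstm1 (-0.46 ± 0.10), Ctsd (-0.33 ± 0.07) and Grn (-0.27 ± 0.08). Without MePipHCA replicate 2 none of the 3 was called by edgeR (adjusted p up to 0.0952, 0.0734 and 0.323 over the alternatives). Of the wider lists, MePipHCA lowered the autophagy kinase Ulk1 (-0.57 ± 0.14) and raised the calcineurin subunit Ppp3cb (0.53 ± 0.11) among 111 genes tested in hepatocytes. Over all genes, 1.38% were called lower and 0.789% higher.

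**Figure D5:**
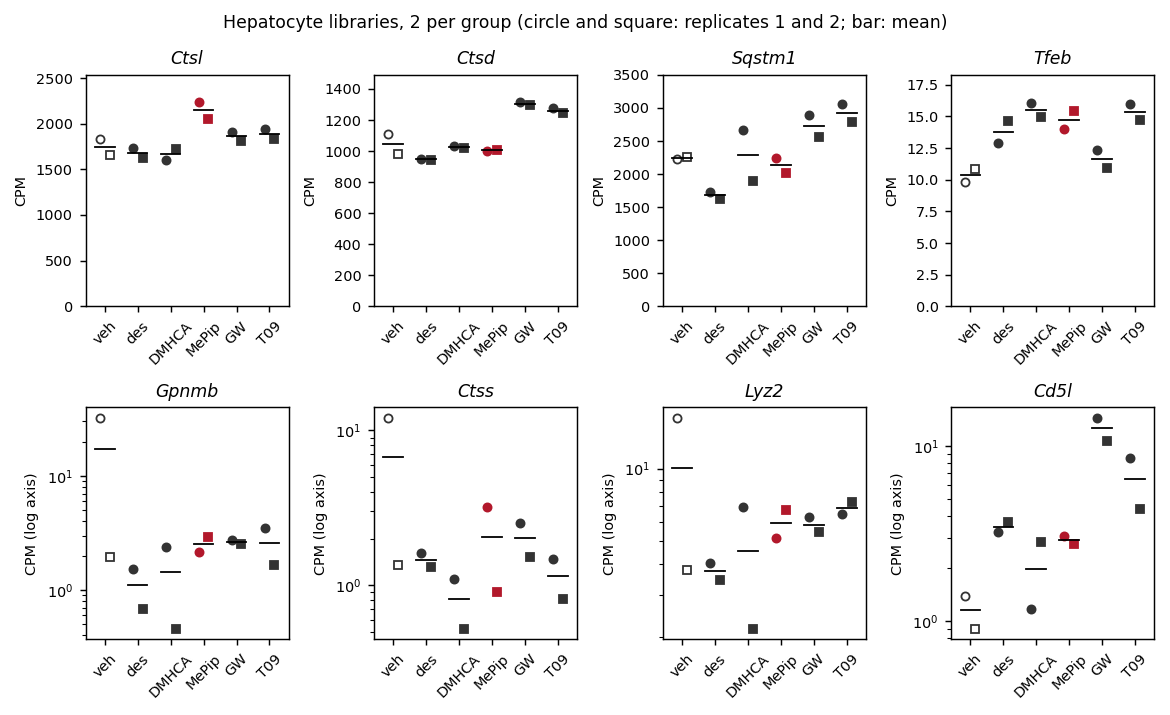
CPM in each hepatocyte library (2 per group) by treatment (abbreviated as veh, des, DMHCA, MePip, GW and T09) for 6 lysosome genes and for the myeloid genes Lyz2 and Cd5l, with bars at the group means and log axes in the lower row. Vehicle replicate 1 stands above the other libraries for Gpnmb (32.3 CPM), Ctss and Lyz2, but not for Cd5l.

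Whether the response to MePipHCA differed between cell types was tested as an interaction across the 30 libraries. It differed for 12 of the 42 genes, 11 of them higher in macrophages and 1 lower (5.04% and 4.62% of 13700 genes). For Ctsl the macrophage change exceeded the hepatocyte change by 0.76 ± 0.10 (adjusted p = 1.11e-07) and for Sqstm1 by 0.68 ± 0.12 (adjusted p = 4.75e-05). Tfeb differed in the other direction, by -0.94 ± 0.15 (adjusted p = 9.53e-06), falling in macrophages while its hepatocyte estimate was above 0. Scarb2 (0.47 ± 0.10), Grn (0.42 ± 0.11), Gusb (0.40 ± 0.10), Lgmn (0.38 ± 0.11), Naglu (0.55 ± 0.17), Mcoln1 (0.45 ± 0.14) and Gla (0.41 ± 0.13) were also higher in macrophages. Ctsl, Scarb2, Tfeb, Grn and Sqstm1 were called in all 15 alternative settings, while Gla was lost in 10, Naglu in 9, Mcoln1 in 6, Lgmn in 4 and Gusb in 1. The differences for Gpnmb (3.13 ± 0.46) and Ctss (2.08 ± 0.40) became -0.24 and -0.49 without hepatocyte vehicle replicate 1, and without that library 6 of the 42 genes were called. Naglu was at 0.09 without it, while Lgmn (0.36), Gla (0.34) and Gusb (0.33) were lost with smaller moves. The T0901317 response differed for 6 genes, 4 higher and 2 lower (2.28% and 1.35% of all genes), and for 1 without that library. Sqstm1 differed there by -0.46 ± 0.12, opposite in sign to its value for MePipHCA, and was -0.45 without that library (adjusted p = 0.0638).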

How the data were processed

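PolyA RNA of 18 macrophage and 12 hepatocyte libraries was sequenced from dUTP libraries, per the labels' protocols. STAR and HOMER are named in the submitters' processing notes, without versions. Per the file headers, the authors counted reads in exons with HOMER on mm10, condensed to genes and without adjustment, and deposited raw counts per gene. They also deposited RPKM values from the same annotation, used here only for levels per length. The strand setting is not given in the sources used here.

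Lysosome genes, their roles and the other lists were chosen with earlier results of these data known. From the counts, edgeR 4.0.16 (R 4.3.3) fitted all 6 groups of a cell type together, with its default filter on low counts, TMM scaling and the quasi-likelihood test. P-values were adjusted by Benjamini-Hochberg over all genes tested, with a threshold of 0.05. Of the lysosome genes, 42 passed the filter in macrophages and 41 in hepatocytes. A fit of all 30 libraries tested differences between cell types. Any of the 42 genes could be named. Of the wider lists, the 4 called genes with the largest absolute change with MePipHCA per list were named, with Abca1 as the check of ligand action and markers of other cell types. Alternatives were DESeq2 1.42.0, its size factors, no count filter, thinning to the lowest total, a replicate block, the 2 groups alone, and leaving out each library. The scripts were tested on simulated data.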

Additional observations from a re-analysis of the deposited data

Results flagged for a closer look

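The response to MePipHCA differed between macrophages and hepatocytes for 12 lysosome genes by the interaction test of edgeR's quasi-likelihood fit. As macrophage change minus hepatocyte change on the log2 scale, the values were 0.76 for Ctsl, 0.68 for Sqstm1, 0.55 for Naglu, 0.47 for Scarb2, 0.45 for Mcoln1, 0.42 for Grn, 0.41 for Gla, 0.40 for Gusb and 0.38 for Lgmn. Tfeb went the other way, at -0.94. Ctss (2.08) and Gpnmb (3.13) had the largest values, and both rest on hepatocyte vehicle replicate 1. Without that library Naglu also lost most of its value, and Lgmn, Gla and Gusb were no longer called.

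The response to T0901317 differed for 6 genes, with values of 2.55 for Ctss, 2.81 for Gpnmb, 0.58 for Scarb2, 0.46 for Lgmn, -0.77 for Tfeb and -0.46 for Sqstm1. Without hepatocyte vehicle replicate 1, Scarb2 alone of these was called by edgeR, at 0.56. Lgmn (0.45, adjusted p = 0.0536), Tfeb (-0.69, 0.0501) and Sqstm1 (-0.45, 0.0638) kept most of their size in that smaller fit, while Ctss and Gpnmb went to -0.026 and -0.56. Both ligands were compared with the same vehicle libraries, so the 2 sets of values are not independent.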

How the results depend on the processing

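In macrophages the number of lysosome genes called with MePipHCA was 22 and lay between 19 and 21 when 1 library was left out, and 30 when the 2 groups were fitted alone, the 22 among them. Leaving out 1 library gave 7 to 15 genes for desmosterol (main 12) and 11 to 13 for GW3965 (main 17). In hepatocytes, where counts were 0 to 3, they moved as follows. Shares over all genes are not given for these settings, so the counts cannot tell a move of the set from a general one. Without the count filter, desmosterol called 3 genes, DMHCA 2, GW3965 5, T0901317 5 and MePipHCA against DMHCA 2. DESeq2 called 0 with desmosterol, 1 with MePipHCA, 2 with GW3965 and 2 with T0901317. Thinned counts gave 2 for each of desmosterol, GW3965 and T0901317, and the 2 groups alone gave 2, 3 and 3. Leaving out 1 library gave 0 to 1 for desmosterol, 0 to 2 for each of the other 4 ligands, 0 to 3 for MePipHCA against DMHCA and 0 to 2 for MePipHCA against T0901317. It gave 6 to 14 genes for the MePipHCA difference between cell types and 1 to 8 for that of T0901317. Without hepatocyte vehicle replicate 1 some values changed sign. Over the fits that left out 1 library, Gpnmb ran from -3.66 to 0.37 with MePipHCA and from -3.62 to 0.40 with T0901317. The difference between cell types ran from -0.49 to 3.09 (Ctss) and -0.24 to 3.80 (Gpnmb) for MePipHCA, and from -0.026 to 3.12 (Ctss) and -0.56 to 3.53 (Gpnmb) for T0901317. The cause was not tested.

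Same-numbered libraries share only a number (correlations of deviations -0.05 to 0.14 in macrophages). With the replicate block, hepatocyte counts were 2 for desmosterol, 1 for DMHCA and 3 for T0901317, and the macrophage MePipHCA count was 24.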
